A study of Homo sapiens with 24 samples.

Results

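Messenger RNA of 40 genes of the interferon response and of class I antigen presentation was followed in AGS cells, a line from a human gastric adenocarcinoma, after 24 h with kinase inhibitors. The 40 genes were taken by symbol from the 23368 genes of the deposited count table. They comprise 14 genes of class I antigen presentation and 26 interferon-stimulated genes. The 6 groups of 4 biological replicates were control (treatment given as none, with no vehicle named), PI103 at 0.7 µM, PD0325901 at 0.035 µM, (5Z)-7-oxozeaenol (oxozeaenol below) at 0.5 µM, PI103 plus oxozeaenol, and PI103 plus PD0325901. In both combinations each compound was given at 50% of its single-agent concentration. All 24 libraries came from wild-type cells of this single line. PI103 inhibits phosphoinositide 3-kinases and mTOR, PD0325901 inhibits the MAP kinase kinases MEK, and oxozeaenol inhibits the kinase TAK1. As background, stocks of AGS have been described as persistently infected with parainfluenza virus 5, whose V protein targets a STAT protein for degradation. Whether these cells carried it was not tested.

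Interferons bind receptors on the cell surface, whose Janus kinases phosphorylate STAT proteins. STAT2, a STAT partner and IRF9 then form a complex that binds the interferon-stimulated response element (ISRE) in front of antiviral genes. Class I molecules, made of a heavy chain and the light chain B2M, display peptides to T cells. The peptides are cut by the proteasome, carried into the endoplasmic reticulum by TAP1 and TAP2, trimmed by ERAP1 and ERAP2 and loaded with the help of tapasin (TAPBP).

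The libraries held between 38057638 and 84226380 counts assigned to genes, and the 40 genes took 0.109% to 0.360% of them. Levels are given as CPM, counts scaled to a common library size with edgeR's normalization factors, which lay between 0.926 and 1.07. Of the 40 genes, 39 had enough counts to be tested among 13947 genes in all. IFI44L had too few. Summed markers of epithelium lay between 5050 and 8010 CPM in all libraries. The summed level of 11 leukocyte markers was 39.3 to 49.6 CPM in control and 187 to 469 CPM in the treated libraries. Nearly all of it was LYZ, which gastric epithelium also makes and which rose from 44.9 ± 4.99 CPM in control to group means between 267 and 390 CPM. Of the other leukocyte markers only CSF1R passed the filter on low counts. PTPRC had a group mean of at most 0.04 CPM, MS4A1 was at 0 in all libraries, and between 2 and 6 of the 11 were at 0 throughout a group. The summed level of 6 fibroblast markers differed by group, at 14.3 to 17.4 CPM in control, 32.3 to 34.4 CPM with PI103, 18.2 to 22.4 CPM with PD0325901, 8.18 to 10 CPM with oxozeaenol, 9.22 to 11.2 CPM with PI103 plus oxozeaenol and 21.8 to 25.8 CPM with PI103 plus PD0325901. Nearly all of it was COL1A1, a collagen chain, while COL1A2 and DCN had group means of at most 0.00441 CPM. Endothelial markers summed to no more than 0.452 CPM. Whether these levels bear on the results was not tested.

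The bases just before the start of transcription show an element that many genes of both groups carry. The 5 windows of 150 bases below are from genes whose changes are described below. All 5 hold the ISRE-like match GAAANNGAAA, so they do not stand for all members. Matches on either strand are in capitals, with overlapping matches joined. They come from RefSeq (GRCh38.p14), run 5′ to 3′ along the gene's strand and end at the base before the start.
B2M (chr15:44711367-44711516, plus strand): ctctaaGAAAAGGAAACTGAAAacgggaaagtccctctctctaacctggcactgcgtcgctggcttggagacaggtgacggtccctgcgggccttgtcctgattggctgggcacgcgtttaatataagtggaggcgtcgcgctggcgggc
TAP1 (chr6:32853705-32853854, minus strand): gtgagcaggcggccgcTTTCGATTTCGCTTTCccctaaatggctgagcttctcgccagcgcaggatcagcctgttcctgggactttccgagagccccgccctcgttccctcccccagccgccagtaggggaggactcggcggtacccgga
TAPBP (chr6:33314079-33314228, minus strand): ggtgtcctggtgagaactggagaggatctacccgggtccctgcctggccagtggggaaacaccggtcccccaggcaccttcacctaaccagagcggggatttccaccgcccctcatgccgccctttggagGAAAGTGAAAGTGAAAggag
BST2 (chr19:17405631-17405780, minus strand): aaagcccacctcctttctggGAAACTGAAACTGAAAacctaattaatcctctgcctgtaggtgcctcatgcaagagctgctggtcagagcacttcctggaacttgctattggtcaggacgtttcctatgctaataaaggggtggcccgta
IFIT1 (chr10:89392473-89392622, plus strand): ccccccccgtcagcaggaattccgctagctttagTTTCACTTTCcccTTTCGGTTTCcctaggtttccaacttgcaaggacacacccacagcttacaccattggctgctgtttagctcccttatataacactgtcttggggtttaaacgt
The match was present within 250 bases before the start in 22 of the 33 members with a RefSeq promoter entry (66.7%), and in 3.71% of 27305 genes with one. Class I genes held it in 7 of 12 and interferon-stimulated genes in 15 of 21. It lay 144 and 138 bases before the start of B2M, 134 and 128 before TAP1, 20 and 14 before TAPBP, 130 and 124 before BST2, and 116 and 103 before IFIT1. TAP2, which fell with oxozeaenol, also held it, 58 bases before its start. Members without it included HLA-B, HLA-C, PSMB8, PSMB9, ERAP1, STAT2, IRF1, IRF9, IFI35, OAS1 and DDX58, and another RefSeq entry of TAP1 held none. A second element bound by STAT dimers, TTCNNNGAA, was present in 10 of 33 members (30.3%) against 8.09% of all genes. The cyclic AMP response element TGACGTCA, searched for comparison, was present in 0 of 33 and in 2.03% of all genes. A match describes these letters only, and many of the interferon-stimulated genes are known for such elements.

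Most genes of both groups rose in every treatment. With PI103, 9 of 14 class I genes and 21 of 25 interferon-stimulated genes rose and 0 of 39 fell, where 26.2% of all tested genes rose and 25.2% fell. PD0325901 raised 13 of 14 and 23 of 25 and lowered 1, against 28.7% and 29.9% of all tested genes. Oxozeaenol raised 11 of 14 and 20 of 25 and lowered 2, against 25.7% and 26.1%. PI103 plus oxozeaenol raised 13 of 14 and 22 of 25 and lowered 2, against 27.7% and 27.9%. PI103 plus PD0325901 raised 13 of 14 and 24 of 25 and lowered 0, against 32.2% and 32.6%. A gene counts as risen or fallen at an adjusted p under 0.05 (quasi-likelihood test of edgeR, adjusted over all tested genes by the method of Benjamini and Hochberg), and the 5 comparisons share the 4 control libraries. In bulk RNA, a change in the number of cells that express a gene and a change in its RNA per cell cannot be told apart.

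The changes were largest with PI103 plus PD0325901 in both groups of genes. The median log2 fold change of the class I genes was 0.38 with PI103, 0.53 with oxozeaenol, 0.80 with PI103 plus oxozeaenol, 0.83 with PD0325901 and 1.18 with PI103 plus PD0325901. In that order the medians of the interferon-stimulated genes were 0.90, 0.74, 1.09, 1.16 and 1.53, and those of all tested genes 0.02, 0.02, 0.02, -0.02 and 0.01. By these medians, PI103 and oxozeaenol changed places between the groups. Across genes, 27 of the 39 rose in all 5 treatments, as did 11.5% of all tested genes. PI103 plus PD0325901 gave the highest group mean for 35 of 39, against 18.0% of all tested genes. PD0325901 was the highest single agent for 27, oxozeaenol for 7 and PI103 for 5, against 30.9%, 32.0% and 37.1% of all tested genes. This holds for the concentrations given.

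**Figure D1:**
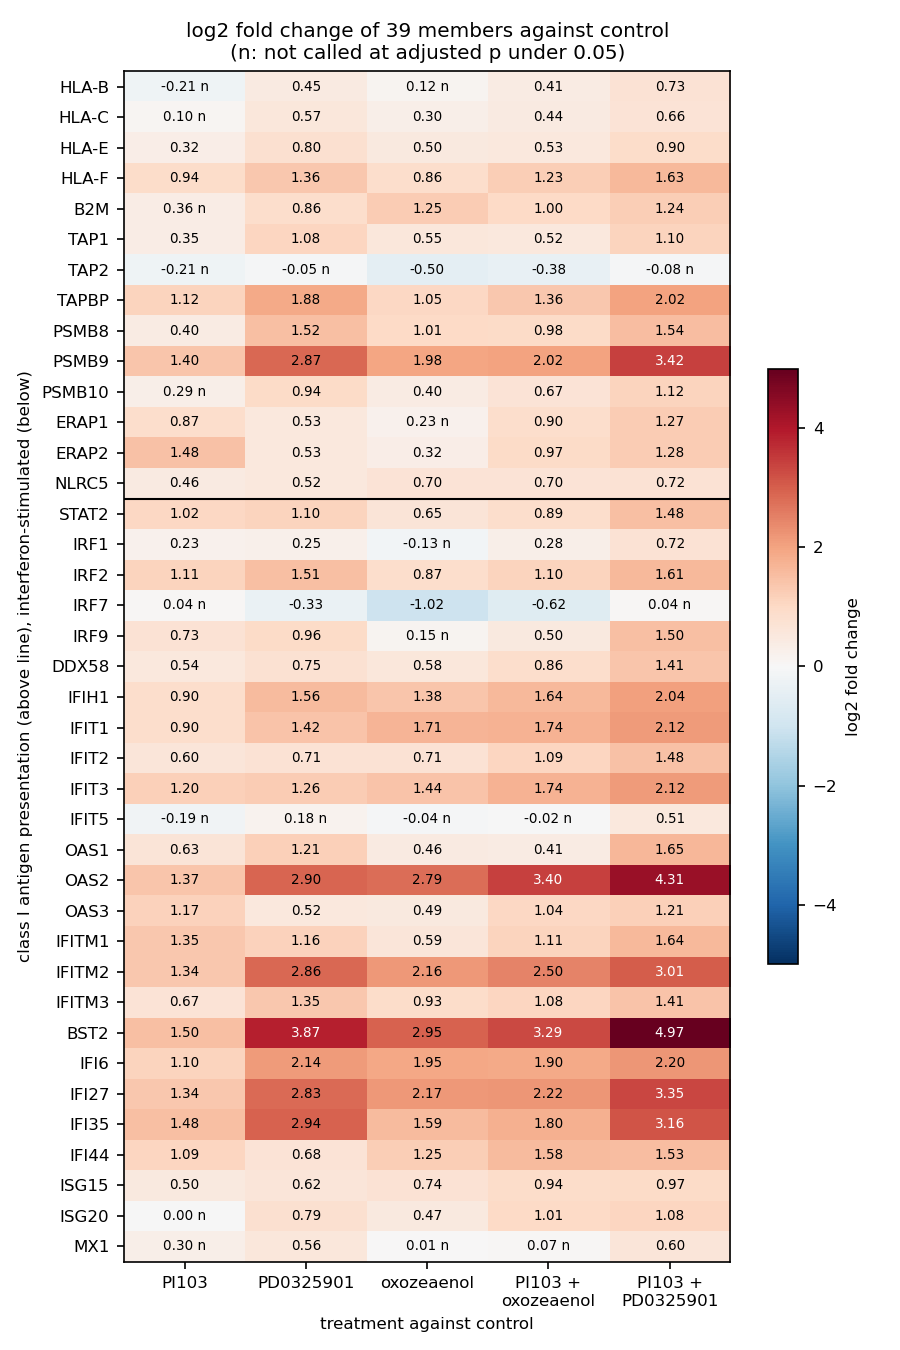
Log2 fold change against control of the 39 tested genes (rows, class I above the line and interferon-stimulated below) in the 5 treatments (columns), with n marking values that were not called. Most cells are positive, the right column holds the largest values for most rows, and TAP2 and IRF7 are the exceptions with called negative values.

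For most members the treated libraries lay wholly above control. All 4 libraries of PI103 plus PD0325901 lay above all 4 controls for 37 of 39 genes, against 28.1% of all tested genes. The same held for 35 genes with PI103 plus oxozeaenol (25.8% of all tested genes), 33 with PD0325901 (24.1%), 29 with PI103 (24.8%) and 27 with oxozeaenol (20.2%). Wholly below control lay 2 members with each of PI103, oxozeaenol and PI103 plus oxozeaenol, against 24.0%, 22.0% and 26.8% of all tested genes. With PD0325901 and with PI103 plus PD0325901 it was 0 members, against 24.9% and 28.9%.

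The 4 heavy chains among the members had their highest mean with PI103 plus PD0325901. HLA-B, a classical heavy chain, was at 30.9, 30.2, 27.3 and 30.9 CPM in control and at 48.3, 65.9, 46.3 and 37.5 CPM with PI103 plus PD0325901. It was at 26.3, 26.9, 25.9 and 24.3 CPM with PI103, 39.7, 45.1, 45.5 and 32.6 CPM with PD0325901, 32.1, 37.6, 33.0 and 26.7 CPM with oxozeaenol and 43.9, 39.9, 42.1 and 32.2 CPM with PI103 plus oxozeaenol. All 4 PI103 libraries lay below all 4 controls, the oxozeaenol libraries overlapped them, and the other 3 treatments lay wholly above. HLA-B rose by a log2 fold change of 0.73 (SE 0.13, edgeR adjusted p = 3.17e-05) with PI103 plus PD0325901, 0.45 (SE 0.13, edgeR adjusted p = 0.00525) with PD0325901 and 0.41 (SE 0.13, edgeR adjusted p = 0.0114) with PI103 plus oxozeaenol. The last of these was not kept without replicate 1 of PI103 plus oxozeaenol (adjusted p = 0.0525). With PI103 alone the log2 fold change was -0.21 (SE 0.13, edgeR adjusted p = 0.199). The edgeR fit of only the groups compared gave -0.20 with an adjusted p of 0.0341. With oxozeaenol the log2 fold change was 0.12 (SE 0.13, edgeR adjusted p = 0.476).

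HLA-C, also a classical heavy chain, and HLA-E and HLA-F, which are non-classical, reached log2 fold changes of 0.66, 0.90 and 1.63 with PI103 plus PD0325901. With PI103 alone HLA-E and HLA-F rose by log2 fold changes of 0.32 and 0.94, while HLA-C was at 0.10 (edgeR adjusted p = 0.523). HLA-C rose with oxozeaenol by 0.30, a call that was lost without any single one of oxozeaenol replicates 1, 2 and 3 or control replicates 2 and 3 (adjusted p up to 0.18). Reads of HLA genes can fit more than 1 of them, so that the division among them is uncertain. The exons of HLA-B and HLA-F also overlap genes on the opposite strand over 17.8% and 28.5% of their length, and whether counting used strand is not given in the sources used here.

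B2M, the light chain shared by all class I molecules, had its highest mean with oxozeaenol, within the spread of PI103 plus PD0325901. Its levels were 434, 629, 494 and 556 CPM in control, 629, 541, 684 and 853 CPM with PI103, 815, 926, 909 and 1194 CPM with PD0325901 and 769, 1068, 1407 and 1795 CPM with oxozeaenol. They were 957, 889, 1001 and 1385 CPM with PI103 plus oxozeaenol and 874, 1421, 1233 and 1466 CPM with PI103 plus PD0325901. Only the PI103 libraries overlapped the controls, and the oxozeaenol libraries spread most. B2M rose by a log2 fold change of 1.25 (SE 0.21, edgeR adjusted p = 3.25e-05) with oxozeaenol and 1.24 (SE 0.21, edgeR adjusted p = 2.04e-05) with PI103 plus PD0325901. With PI103 it was 0.36 (SE 0.21, edgeR adjusted p = 0.163), and the fit with the replicate number as a block gave an adjusted p of 0.0341.

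Tapasin, which holds class I molecules at the transporter, rose in all 5 treatments. TAPBP was at 39.2, 34.6, 39.0 and 37.3 CPM in control, 76.7, 84.2, 82.5 and 82.6 CPM with PI103, 135, 174, 127 and 116 CPM with PD0325901 and 85.4, 71.3, 76.4 and 78.6 CPM with oxozeaenol. It was at 98.9, 90.7, 104 and 90.5 CPM with PI103 plus oxozeaenol and 163, 187, 138 and 124 CPM with PI103 plus PD0325901. Every treated library lay above every control. It rose by a log2 fold change of 1.88 (SE 0.12, edgeR adjusted p = 9e-13) with PD0325901 and 2.02 (SE 0.12, edgeR adjusted p = 1.98e-13) with PI103 plus PD0325901, which is 4.07-fold.

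The 2 subunits of the peptide transporter did not move together. TAP1 was at 21.8, 19.4, 21.5 and 18.5 CPM in control and 43.4, 51.6, 42.3 and 36.5 CPM with PI103 plus PD0325901, a log2 fold change of 1.10 (SE 0.11, edgeR adjusted p = 3.59e-09). With PD0325901 alone it was at 40.1, 49.2, 46.0 and 35.8 CPM, with no overlap with control, and it rose by 1.07 (SE 0.11, edgeR adjusted p = 8.2e-09). TAP2 was at 34.7, 33.0, 31.1 and 31.2 CPM in control, 27.9, 20.9, 25.1 and 18.5 CPM with oxozeaenol and 25.0, 26.7, 25.2 and 22.9 CPM with PI103 plus oxozeaenol, and both treated groups lay wholly below control, as did the PI103 libraries. TAP2 fell, with log2 fold changes of -0.50 (SE 0.10, edgeR adjusted p = 0.000278) with oxozeaenol and -0.38 (SE 0.10, edgeR adjusted p = 0.0028) with PI103 plus oxozeaenol. With PI103 its log2 fold change was -0.21 (SE 0.10, edgeR adjusted p = 0.0927), and the fit with the replicate block gave an adjusted p of 0.0285. With PD0325901 it was -0.05 (SE 0.10, edgeR adjusted p = 0.72) and with PI103 plus PD0325901 -0.08 (SE 0.10, edgeR adjusted p = 0.535). About 32.3% of the exon length of TAP2 overlaps another gene on the same strand.

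TAP1 and PSMB9 lie head to head on chromosome 6, with 488 bases between their starts. They belong to the 9 class I members within chr6:29723434-33314078, a stretch of 3.59 Mb. PSMB9, a catalytic subunit of the immunoproteasome, was at 0.518, 0.410, 0.452 and 0.328 CPM in control, 0.892, 1.11, 1.13 and 1.39 CPM with PI103, 2.42, 3.98, 3.30 and 2.79 CPM with PD0325901 and 1.11, 1.72, 2.33 and 1.64 CPM with oxozeaenol. It was at 2.14, 1.42, 2.22 and 1.10 CPM with PI103 plus oxozeaenol and 3.45, 6.60, 4.28 and 4.02 CPM with PI103 plus PD0325901. All treated libraries were above all controls, from a low base. Its log2 fold change with PI103 plus PD0325901 was 3.42 (SE 0.27, edgeR adjusted p = 4.56e-11), the largest among the class I genes. PSMB8, another immunoproteasome subunit, rose by 0.40 with PI103, 1.52 with PD0325901 and 1.54 with PI103 plus PD0325901. PSMB10 rose by 0.94 with PD0325901 and 1.12 with the same combination. Its rise of 0.40 with oxozeaenol was not kept without control replicate 3 or oxozeaenol replicate 3 (adjusted p up to 0.0755).

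Relative to the constitutive subunits they replace, all 3 immunoproteasome subunits gained. Counts per exon length of PSMB8 were 5.45% ± 0.28 of those of PSMB5 in control (SD, n = 4) and 19.0% ± 2.57 with PI103 plus PD0325901. PSMB10 went from 6.86% ± 0.58 of PSMB7 to 20.5% ± 3.56. PSMB9 went from 0.122% ± 0.033 of PSMB6 to 1.72% ± 0.46, so that it stayed a small part of its pair. In this combination PSMB5, PSMB6 and PSMB7 themselves fell, with log2 fold changes of -0.26, -0.42 and -0.44, and the fall of PSMB5 was not kept without replicate 1 of the combination (adjusted p = 0.0519). PSMB8 and PSMB10 share part of their exons with other genes, on the opposite strand over 20.6% and on the same strand over 34.8%.

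**Figure D2:**
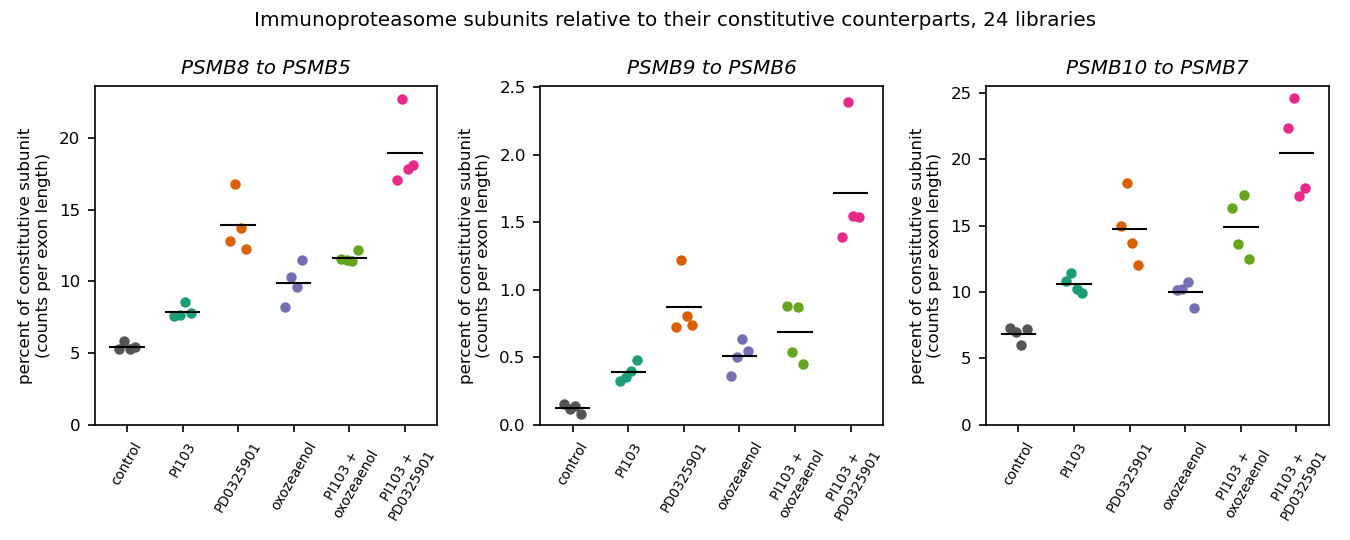
Counts per exon length of PSMB8, PSMB9 and PSMB10 as a percentage of PSMB5, PSMB6 and PSMB7 (vertical axes from 0) in each of 24 libraries (points) with group means (lines). The lowest group means are in control and the highest in PI103 plus PD0325901 in all 3 panels, and the scale of the PSMB9 panel ends near 2.5%.

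The trimming enzymes rose more with PI103 than with the other single agents. ERAP2 was at 33.6, 32.4, 42.7 and 32.9 CPM in control, 101, 93.6, 112 and 89.1 CPM with PI103, 51.0, 57.9, 49.7 and 46.1 CPM with PD0325901 and 45.0, 42.8, 47.3 and 41.4 CPM with oxozeaenol. It was at 71.8, 71.9, 69.2 and 64.1 CPM with PI103 plus oxozeaenol and 90.6, 74.6, 93.5 and 85.7 CPM with PI103 plus PD0325901. The PI103 libraries were higher than all those of either other single agent, and control replicate 3 stood apart from the other controls. ERAP2 rose by 1.48 (SE 0.10, edgeR adjusted p = 6.97e-12) on the log2 scale with PI103 and 0.53 (SE 0.10, edgeR adjusted p = 3.9e-05) with PD0325901, and between PD0325901 and PI103 it was -0.95 (SE 0.10, edgeR adjusted p = 1.24e-08). ERAP1 rose by 0.87 with PI103, 0.53 with PD0325901 and 1.27 with PI103 plus PD0325901. With oxozeaenol ERAP1 was at 0.23 (edgeR adjusted p = 0.0762), where the replicate block gave 0.0401.

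NLRC5, the transactivator of class I genes, rose in all 5 treatments. It was at 6.64, 5.23, 5.61 and 5.56 CPM in control and 9.87, 7.85, 10.9 and 9.29 CPM with PI103 plus PD0325901. Its log2 fold change ranged from 0.46 with PI103, over 0.52 with PD0325901, to 0.72 (SE 0.11, edgeR adjusted p = 1.72e-06) with PI103 plus PD0325901, and both oxozeaenol groups were at 0.70. No treated library overlapped control.

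Among the signalling factors, STAT2 and IRF9 rose while IRF7 fell in 3 treatments. STAT2 was at 24.6, 25.9, 32.0 and 24.7 CPM in control and 75.7, 82.0, 71.2 and 71.6 CPM with PI103 plus PD0325901, with a log2 fold change of 1.49 (SE 0.14, edgeR adjusted p = 2.7e-09). With oxozeaenol STAT2 was at 37.9, 33.3, 39.0 and 58.6 CPM, and replicate 4 was well above the other 3. IRF9 was at 17.0, 19.7, 15.8 and 20.3 CPM in control, 18.1, 19.9, 20.6 and 22.5 CPM with oxozeaenol and 50.3, 60.6, 44.5 and 50.3 CPM with PI103 plus PD0325901. Its log2 fold change was 1.50 (SE 0.10, edgeR adjusted p = 5.05e-12) with that combination and 0.15 (SE 0.10, edgeR adjusted p = 0.221) with oxozeaenol, whose libraries overlapped control. Part of the exons of IRF9, 48.4%, overlaps another gene on the same strand.

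IRF7, which amplifies the induction of type I interferon, ran against most members. Its levels were 17.9, 17.4, 13.98 and 19.6 CPM in control, 16.1, 20.6, 16.2 and 17.8 CPM with PI103, 14.1, 13.5, 14.3 and 12.9 CPM with PD0325901 and 8.30, 9.27, 7.89 and 8.47 CPM with oxozeaenol. They were 12.4, 10.0, 11.7 and 10.7 CPM with PI103 plus oxozeaenol and 18.5, 17.9, 18.0 and 16.5 CPM with PI103 plus PD0325901. Both oxozeaenol groups lay wholly below control, and the other 3 treatments overlapped it. IRF7 fell, with log2 fold changes of -1.02 (SE 0.10, edgeR adjusted p = 7.57e-09) with oxozeaenol, -0.62 (SE 0.10, edgeR adjusted p = 9.18e-06) with PI103 plus oxozeaenol and -0.33 (SE 0.10, edgeR adjusted p = 0.00603) with PD0325901. With PI103 it was 0.04 (SE 0.10, edgeR adjusted p = 0.764) and with PI103 plus PD0325901 0.04 (SE 0.10, edgeR adjusted p = 0.72).

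IRF1, an activator of class I genes, was at 27.8, 26.1, 26.1 and 24.5 CPM in control and 47.3, 44.8, 42.5 and 37.5 CPM with PI103 plus PD0325901, where it rose by 0.72 (SE 0.10, edgeR adjusted p = 5.17e-07). Those 4 libraries were above all others of IRF1. The rises with PI103, PD0325901 and PI103 plus oxozeaenol were 0.23, 0.25 and 0.28 (edgeR adjusted p = 0.0485, 0.0315 and 0.0171). The first was lost without any one of PI103 replicates 1, 2 and 3 or control replicates 2, 3 and 4 (adjusted p up to 0.152). The second was lost without any one of PD0325901 replicates 1, 2 and 3 or control replicates 2 and 4 (up to 0.0873), and the last without replicate 1 of that combination or control replicate 4 (up to 0.0956). With oxozeaenol IRF1 was -0.13 (SE 0.10, edgeR adjusted p = 0.275). IRF2, a competitor of IRF1 for the same sites, rose in all 5 treatments, by 0.87 with oxozeaenol to 1.61 with PI103 plus PD0325901.

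The cytosolic RNA sensors rose in all 5 treatments. DDX58, which encodes RIG-I, went from 21.3 ± 2.43 CPM in control (SD, n = 4) to 56.4 ± 3.08 CPM with PI103 plus PD0325901, a log2 fold change of 1.41. IFIH1, which encodes MDA5, went from 6.98 ± 1.16 to 28.8 ± 1.91 CPM, a log2 fold change of 2.04. With PI103 alone the log2 fold changes were 0.54 and 0.90.

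IFIT1, which binds viral RNA, rose in all 5 treatments. It was at 20.4, 23.7, 22.8 and 22.8 CPM in control, 42.2, 38.0, 44.0 and 42.4 CPM with PI103, 54.8, 44.0, 66.7 and 74.4 CPM with PD0325901 and 58.2, 77.2, 79.9 and 77.2 CPM with oxozeaenol. It was at 73.8, 69.4, 76.7 and 80.0 CPM with PI103 plus oxozeaenol and 85.0, 93.8, 103 and 109 CPM with PI103 plus PD0325901. All treated libraries were above all controls, and oxozeaenol replicate 1 was below the other 3 of its group. IFIT1 rose by 1.71 (SE 0.12, edgeR adjusted p = 3.37e-11) on the log2 scale with oxozeaenol and 2.12 (SE 0.12, edgeR adjusted p = 2.68e-13) with PI103 plus PD0325901. Between oxozeaenol and PD0325901 it was 0.28 (SE 0.12, edgeR adjusted p = 0.0751), and the replicate block gave an adjusted p of 0.0219. IFIT2 and IFIT3, of the same family, rose by 1.48 and 2.12 with PI103 plus PD0325901. IFIT5 rose in that combination by 0.51 (edgeR adjusted p = 0.000559), and its log2 fold changes in the other 4 treatments lay between -0.19 and 0.18 and were not called.

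The OAS enzymes sense double-stranded RNA and switch on an RNase. OAS2 was at 0.292, 0.0931, 0.574 and 0.105 CPM in control, 0.707, 0.555, 0.823 and 0.792 CPM with PI103, 2.01, 2.23, 2.29 and 1.80 CPM with PD0325901 and 2.26, 1.92, 1.39 and 2.10 CPM with oxozeaenol. It was at 3.00, 2.74, 3.24 and 2.82 CPM with PI103 plus oxozeaenol and 6.53, 5.91, 4.96 and 4.65 CPM with PI103 plus PD0325901. PI103 replicate 2 lay just below the highest control, the other treated libraries lay above all controls, and the libraries of PI103 plus PD0325901 were above all others. OAS2 rose by a log2 fold change of 4.31 (SE 0.31, edgeR adjusted p = 6.74e-12) with PI103 plus PD0325901 and 3.40 (SE 0.30, edgeR adjusted p = 8.35e-10) with PI103 plus oxozeaenol. OAS1 rose most with PI103 plus PD0325901, by 1.65. OAS3 rose with PI103 by 1.17, more than with PD0325901 (0.52) or oxozeaenol (0.49).

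BST2, or tetherin, which holds budding virus at the cell surface, had the largest fold change of all members. It was at 0.113, 0.168, 0.208 and 0.184 CPM in control, 0.646, 0.225, 0.377 and 0.678 CPM with PI103, 2.77, 2.82, 2.39 and 2.14 CPM with PD0325901 and 1.15, 1.25, 1.36 and 1.57 CPM with oxozeaenol. It was at 1.69, 1.74, 1.37 and 1.93 CPM with PI103 plus oxozeaenol and 6.09, 6.94, 3.96 and 4.65 CPM with PI103 plus PD0325901. All treated libraries lay above all controls, and the 4 of PI103 plus PD0325901 above all others. The log2 fold change was 4.97 (SE 0.28, edgeR adjusted p = 1.47e-13) with that combination, 3.87 (SE 0.28, edgeR adjusted p = 1.55e-11) with PD0325901 and 1.50 (SE 0.31, edgeR adjusted p = 0.000226) with PI103. The control counts of BST2 and OAS2 were low, so that their fold changes rest on small counts in that group.

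The IFITM proteins block virus entry. IFITM1 went from 33.6 ± 1.56 CPM in control to 85.5 ± 4.93 CPM with PI103 and 74.8 ± 6.18 CPM with PD0325901. IFITM2 went from 1.88 ± 0.292 to 4.80 ± 0.556 and 13.8 ± 1.92 CPM, and IFITM3 from 74.5 ± 6.20 to 118 ± 15.6 and 189 ± 20.5 CPM. All 3 rose in all 5 treatments. They are similar in sequence, and annotated exons of IFITM1 and IFITM2 overlap over 32.5% and 22.7% of their length, so that the division among them is uncertain.

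Of the other effectors, IFI35 was at 0.437, 0.317, 0.489 and 0.249 CPM in control and 2.61, 3.52, 2.94 and 2.51 CPM with PD0325901. Its log2 fold change was 2.94 (SE 0.28, edgeR adjusted p = 1.38e-09) with PD0325901 and 3.16 (SE 0.28, edgeR adjusted p = 2.39e-10) with PI103 plus PD0325901, and no library of either overlapped control. IFI27 and IFI6 rose by 3.35 and 2.20 in that combination.

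ISG15, a ubiquitin-like modifier, rose in all 5 treatments. It was at 51.7, 57.4, 43.6 and 67.7 CPM in control, 70.5, 84.7, 71.8 and 84.6 CPM with PI103 and 106, 114, 106 and 106 CPM with PI103 plus PD0325901. Its libraries with PI103 plus PD0325901 lay wholly above control, with a log2 fold change of 0.97 (SE 0.13, edgeR adjusted p = 2.54e-07). ISG20, an exonuclease, rose in 4 treatments and was -0.00 with PI103 (edgeR adjusted p = 0.984). Its rise of 0.47 with oxozeaenol was lost without any one of control replicates 1, 2 and 3 or oxozeaenol replicates 1 and 2 (adjusted p up to 0.083).

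MX1, a GTPase against RNA viruses, was called in 2 treatments. It was at 0.551, 1.02, 1.17 and 0.840 CPM in control and 1.43, 1.41, 1.23 and 1.37 CPM with PI103 plus PD0325901, where the log2 fold change was 0.60 (SE 0.24, edgeR adjusted p = 0.0314). With PD0325901 it was 0.56 (SE 0.24, edgeR adjusted p = 0.0466). Both calls were lost without any one of control replicates 1 and 4 or of replicates 1, 2 and 4 of the treatment (adjusted p up to 0.128 and 0.172). IFI44 rose in all 5 treatments, by 0.68 with PD0325901 to 1.58 with PI103 plus oxozeaenol, and the former was lost without control replicate 3 or PD0325901 replicates 3 or 4 (adjusted p up to 0.125). IFI44L had 0 counts in all control libraries and 12, 13, 7 and 9 counts with PI103 plus PD0325901. Its 0.163 ± 0.050 CPM there was at least 3.6-fold higher than the floor of 3 counts per control library.

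**Figure D3:**
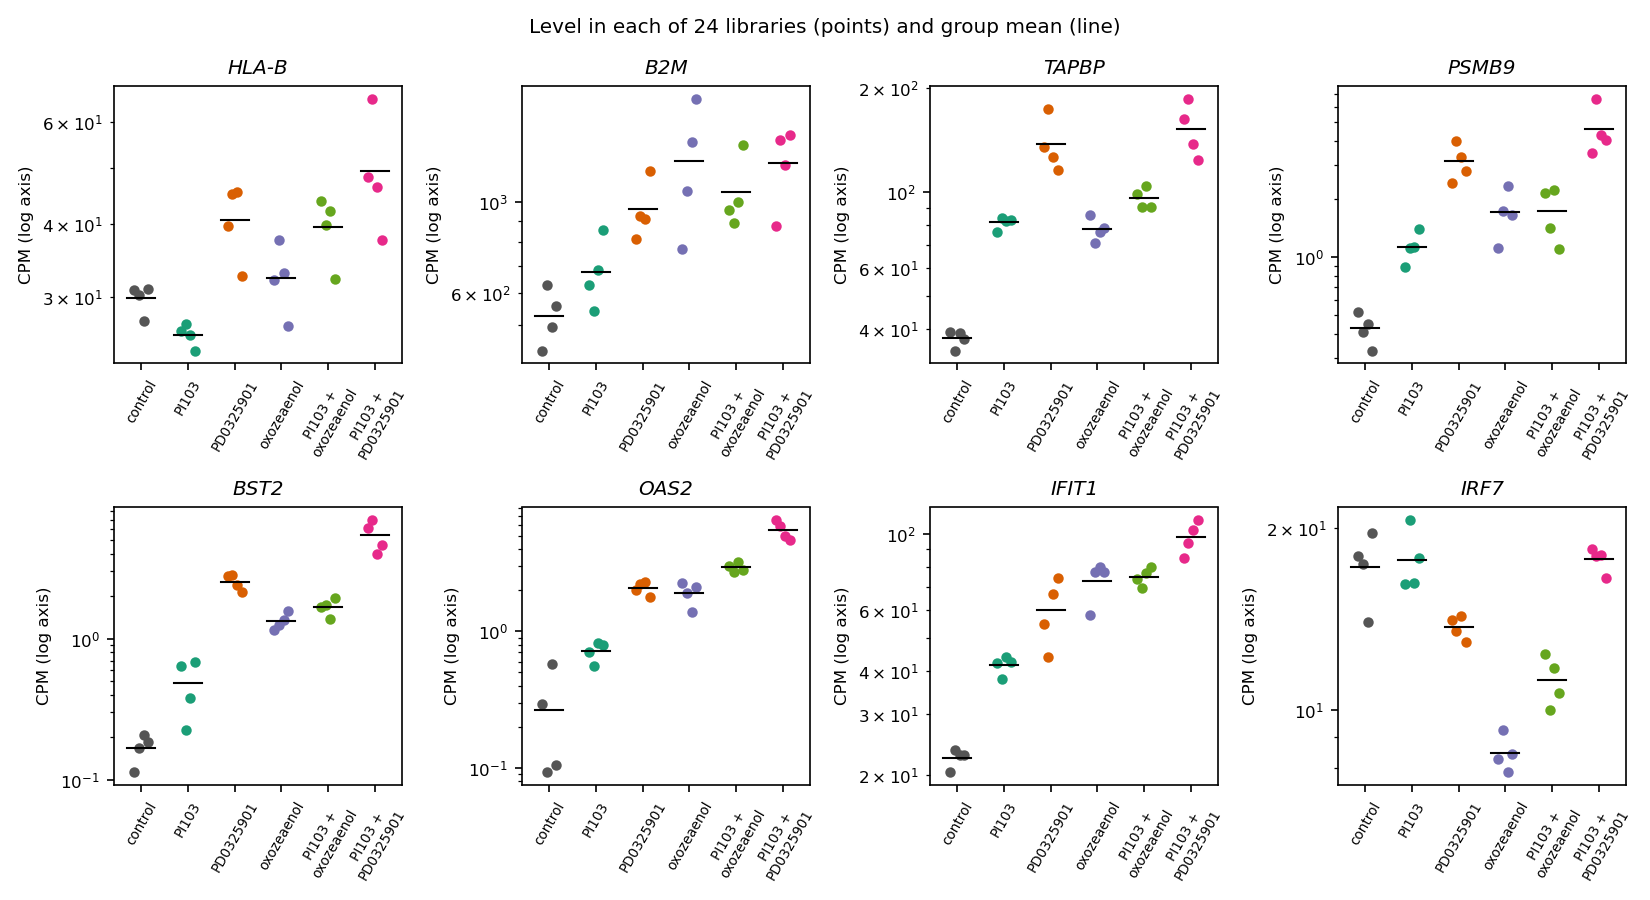
Levels of 8 members in CPM (log axes) in each of the 24 libraries (points) and the group means (lines). BST2, OAS2 and PSMB9 span more than an order of magnitude between control and PI103 plus PD0325901, B2M is highest with oxozeaenol, and IRF7 is lowest with oxozeaenol.

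The 2 gene groups were then set side by side in each library, as the mean log2 difference of their genes from the control mean. The class I genes were at 0.54 ± 0.04 with PI103, 0.61 ± 0.10 with oxozeaenol, 0.80 ± 0.10 with PI103 plus oxozeaenol, 0.98 ± 0.13 with PD0325901 and 1.24 ± 0.15 with PI103 plus PD0325901 (SD, n = 4). The interferon-stimulated genes were at 0.84 ± 0.05, 0.98 ± 0.04, 1.26 ± 0.08, 1.35 ± 0.06 and 1.84 ± 0.11 in the same order. The difference between the median log2 fold changes, interferon-stimulated minus class I, was smallest with oxozeaenol (0.21) and largest with PI103 (0.52). It was 0.29 with PI103 plus oxozeaenol, 0.33 with PD0325901 and 0.34 with PI103 plus PD0325901. The order depended on the summary, since the list means of the libraries gave the smallest difference with PI103 (0.29), then 0.37 with PD0325901 and with oxozeaenol, 0.47 with PI103 plus oxozeaenol and the largest, 0.60, with PI103 plus PD0325901. By the list means, PI103 lay below oxozeaenol in both gene groups. These differences describe the lists, with no test. Without control replicate 3 the difference between the medians for PI103 was 0.639.

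**Figure D4:**
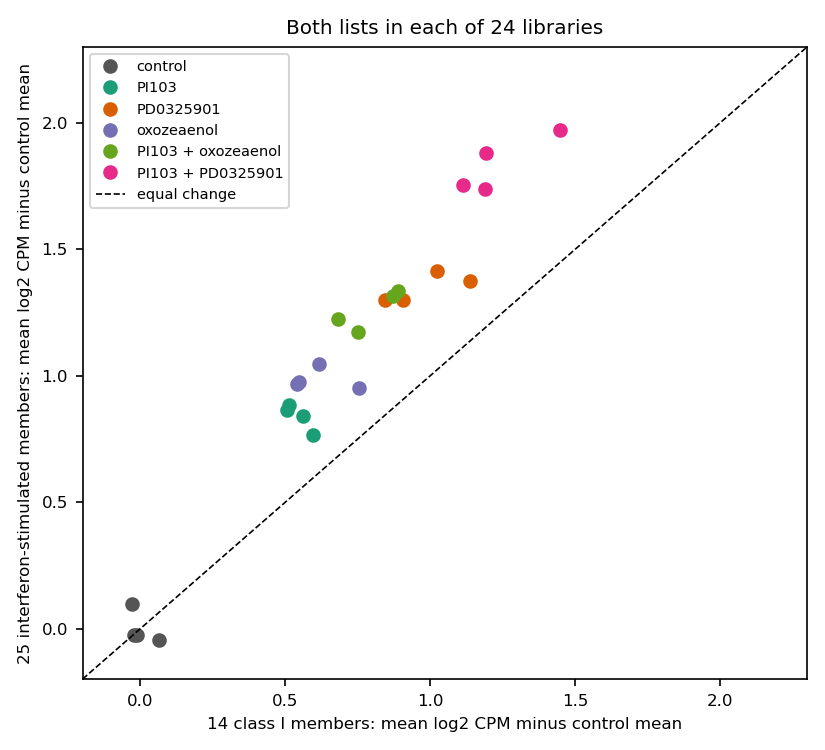
Mean log2 CPM minus the control mean over 25 interferon-stimulated genes (vertical) against that over 14 class I genes (horizontal), 1 point per library. The treated libraries lie above the dashed line of equal change, and those of PI103 plus PD0325901 lie farthest from the controls.

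Both combinations were compared with their single agents, which were given at the full concentration. PI103 plus PD0325901 was higher than PI103 for 32 of 39 genes and lower for 0, against 18.8% and 19.9% of all tested genes. It was higher than PD0325901 for 18 and lower for 0, against 8.06% and 10.0%. Of those 18 genes, 16 were interferon-stimulated and 2 were the class I genes ERAP1 and ERAP2. BST2 was higher by a log2 fold change of 1.10 (SE 0.21, edgeR adjusted p = 0.000972), OAS2 by 1.41 (SE 0.25, edgeR adjusted p = 0.000421) and IFIT1 by 0.70 (SE 0.12, edgeR adjusted p = 0.000254) than with PD0325901 alone.

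Each compound was given at a lower concentration in the combination than alone. Taking the mean of PI103 and PD0325901 on the log2 scale as a reference assumes effects on that scale that are linear in concentration. This assumption was not tested, so a gene above the mean need not show an effect beyond the single agents. Against this mean, the combination was higher for 35 of 39 genes and lower for 0, against 10.8% and 11.1% of all tested genes. They were 12 of 14 class I and 23 of 25 interferon-stimulated genes, with medians of 0.49 and 0.65. BST2 (2.29 (SE 0.18, edgeR adjusted p = 3.58e-09)), OAS2 (2.17 (SE 0.21, edgeR adjusted p = 6.57e-08)) and PSMB9 (1.29 (SE 0.20, edgeR adjusted p = 5.39e-05)) differed most.

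PI103 plus oxozeaenol stood less apart. It was higher than PI103 for 17 genes and lower for 3, against 9.39% and 8.92% of all tested genes. The genes that were lower were IRF7, ERAP2 and IFITM1, named after their values were seen. It was higher than oxozeaenol for 11 and lower for 0, against 7.59% and 7.28%. Leaving out replicate 1 of that combination gave 5 genes, and leaving out its replicate 3 gave 7. Against the mean of both agents, under the same assumption, it was higher for 13 genes and lower for 0, against 2.88% and 1.10%. Without replicate 3 of the combination, 8 were higher. With all libraries, OAS2 was higher than that mean by 1.32 (SE 0.22, edgeR adjusted p = 0.000447) and BST2 by 1.06 (SE 0.20, edgeR adjusted p = 0.00176).

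The single agents were also compared with each other in the level of each member. They differ in both target and concentration, which cannot be told apart here. PD0325901 was higher than PI103 for 22 genes and lower for 4, against 22.9% and 21.7% of all tested genes. The 4 lower genes were ERAP1, ERAP2, OAS3 and IRF7. Oxozeaenol was higher than PI103 for 11 and lower for 9, against 22.5% and 20.6%, so that both shares were near those of all genes. It was higher than PD0325901 for 0 genes and lower for 21, against 13.4% and 15.1%. Among those 21 were BST2 (-0.93 (SE 0.23, edgeR adjusted p = 0.00361)), TAPBP (-0.82 (SE 0.11, edgeR adjusted p = 8.23e-06)) and IRF9 (-0.81 (SE 0.10, edgeR adjusted p = 3.46e-06)).

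Interferon transcripts themselves were scarce but rose with PD0325901. Most of those tested also rose with PI103, with IL28A and IL28B among them at low counts. IFNB1, which encodes interferon beta, had 9, 19, 15 and 20 counts in the control libraries, 15, 9, 20 and 26 under PI103, 77, 67, 105 and 128 under PD0325901 and 10, 43, 13 and 23 under oxozeaenol. It had 37, 24, 31 and 25 counts with PI103 plus oxozeaenol and 172, 202, 200 and 188 with PI103 plus PD0325901. The libraries with PD0325901, alone or combined, were above all others. IFNB1 rose by 3.70 (SE 0.32, edgeR adjusted p = 1.9e-10) with PI103 plus PD0325901 and 2.70 (SE 0.32, edgeR adjusted p = 7.17e-08) with PD0325901, while with PI103 it was 0.30 (SE 0.36, edgeR adjusted p = 0.498) and with oxozeaenol 0.74 (SE 0.35, edgeR adjusted p = 0.0778).

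The type III interferon gene IL29 (IFNL1) was at 0.518, 0.745, 0.379 and 0.919 CPM in control and 4.93, 4.32, 4.31 and 3.92 CPM with PI103 plus PD0325901, with no overlap and a log2 fold change of 2.77 (SE 0.22, edgeR adjusted p = 3.5e-11). IL28A (IFNL2) was at 0.0345 ± 0.0315 CPM in control and 1.40 ± 0.255 CPM in that combination. It has a near-identical copy, IL28B, so that its value is uncertain. With PI103 alone IL29 and IL28A rose by log2 fold changes of 0.77 and 2.02, and with PD0325901 alone by 1.96 and 4.44. IL28A had 5, 1, 1 and 2 counts in control and 8, 4, 17 and 5 with PI103. IFNE rose by 2.32 with PI103, 1.84 with PD0325901, 1.82 with oxozeaenol and 2.86 with PI103 plus PD0325901. Its levels with PD0325901 and with oxozeaenol did not differ from PI103 by a called change (edgeR adjusted p = 0.231 and 0.216). IFNE in oxozeaenol replicate 4 (2.47 CPM) lay above the rest of its group. Of 11 interferon genes listed, 5 were tested. The other 6, IFNG among them, were at 0 counts in every library. Of the 5, 4 rose under PI103, 2 under oxozeaenol and all 5 under each of the other treatments, and 0 fell. Between 25.7% and 32.2% of all tested genes rose. IL28A and IL28B passed the filter on low counts only through the groups with PD0325901, so that their rises there follow in part from the filter. IL28B had 1, 0, 0 and 0 counts in control, 1, 6, 2 and 6 with PI103 and 1, 3, 4 and 3 with oxozeaenol. Of the remaining genes, IL29 and IFNE rose under PI103 and only IFNE under oxozeaenol.

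**Figure D5:**
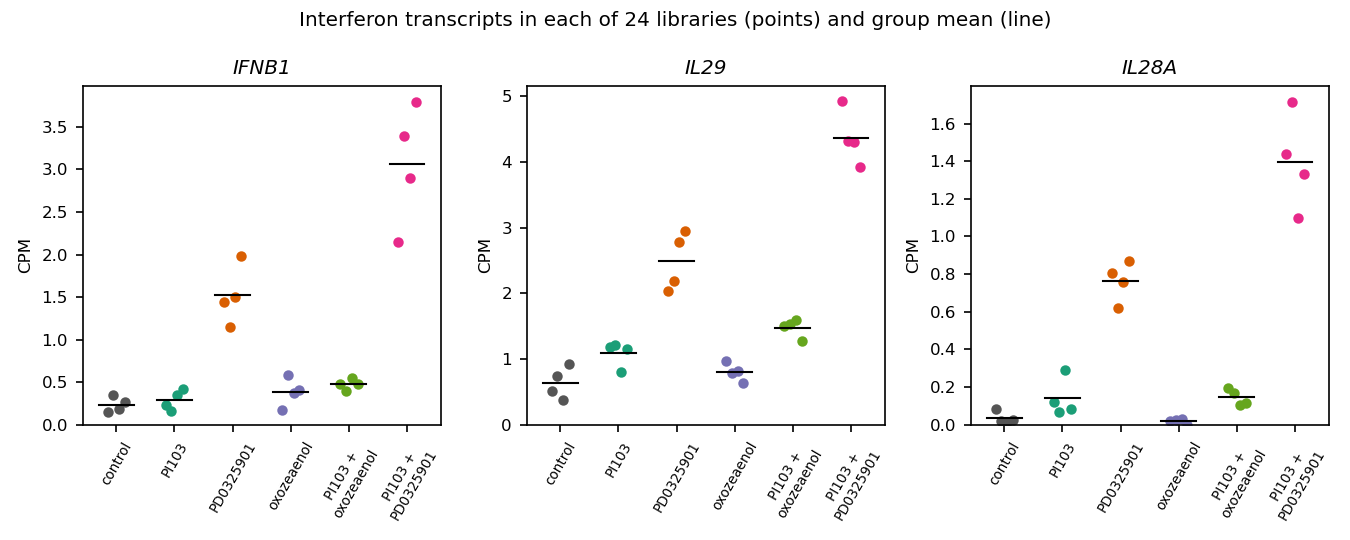
Levels of IFNB1, IL29 and IL28A in CPM (vertical axes from 0) in each of the 24 libraries (points) with group means (lines). The 4 libraries of PI103 plus PD0325901 are highest in all 3 panels, followed by those of PD0325901.

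Other genes of the pathway were taken from lists that hold none of the 40. Of 40 tested interferon-stimulated genes outside the 40 members, 32 rose and 2 fell with PI103 plus PD0325901, 31 and 4 with PD0325901, 26 and 3 with PI103 plus oxozeaenol, 22 and 6 with PI103, and 22 and 3 with oxozeaenol. Of all tested genes, 32.2% rose and 32.6% fell with PI103 plus PD0325901, 28.7% and 29.9% with PD0325901, 27.7% and 27.9% with PI103 plus oxozeaenol, 26.2% and 25.2% with PI103, and 25.7% and 26.1% with oxozeaenol. APOL1, LGALS3BP and OASL had the smallest adjusted p of that list, and with PI103 plus PD0325901 they rose by 3.49, 2.22 and 1.85. Of 10 receptors, kinases and STAT genes, 5 rose and 0 fell in that combination, against 32.2% and 32.6% of all tested genes. The receptor subunit IFNAR2 was at 13.8 ± 1.47 CPM in control and 26.4 ± 2.68 CPM there.

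The counts for the smaller lists with PI103 plus PD0325901 stand against 32.2% of all tested genes that rose and 32.6% that fell in that comparison. Of 12 tested sensing genes, 7 rose and 3 fell with PI103 plus PD0325901. TLR3 rose by 3.38 and DHX58 by 2.82, while MB21D1, which encodes the DNA sensor cGAS, fell, with a log2 fold change of -0.95 (SE 0.11, edgeR adjusted p = 2.08e-08). The inhibitor SOCS3 rose by 1.78 (SE 0.10, edgeR adjusted p = 2.25e-13), and 6 of 9 negative regulators rose and 2 fell in the same comparison. Of 8 chaperones and proteasome activators of class I loading, 5 rose and 2 fell there. CALR rose by 0.99, PDIA3 by 0.86 and PSME1 by 1.09. Of 11 other class I and stress ligands 3 rose and 4 fell, shares near those of all tested genes, with MR1 at 0.94 and ULBP1 at -0.72. Of 13 listed genes of the class II pathway only 6 were tested, HLA-DMA, HLA-DQB1, CD74, RFX5, RFXANK and RFXAP. Of these, 4 rose and 1 fell in that combination, and HLA-DMA rose by 2.52 (SE 0.21, edgeR adjusted p = 9.17e-11). CD74 had only 156 counts over all libraries. Of the genes not tested, HLA-DRA and HLA-DQA1 had 0 counts, and HLA-DRB1, HLA-DPA1 and CIITA had 16, 14 and 162 over all libraries.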

How the data were processed

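Counts per gene were deposited by the authors for 24 libraries as 1 table on GRCh38, per the submitters' processing notes. Libraries were stranded and made from 0.8 µg of total RNA, per the labels' protocols. The aligner, counter and strand setting are not given in the sources used here. Summary rows that name no gene (no feature, 4.24% to 8.57%, ambiguous, 1.57% to 2.01%, and not unique, 4.64% to 6.06%) were left out. Genes passing filterByExpr (13947 of 23368, 99.989% of counts) were fitted with edgeR 4.0.16 in R 4.3.3, with TMM factors, 1 coefficient per group over all 24 libraries and quasi-likelihood tests at an adjusted p of 0.05, and the script was tested on simulated data. The members and lists were chosen with earlier results of these data known. Groups came from titles. The replicate number equals the batch number in the labels, so a fit with it as a block was also made. Same-numbered libraries deviated together weakly (mean r = 0.12 over 60 pairs, -0.039 over 180 others). P-values measure the spread between biological replicates of 1 line. Named by rule were 11 fixed members and, per treatment, the 2 largest called rises and falls of each group with a mean of at least 1 CPM, and in other lists up to 3 genes with the smallest adjusted p. Other members were given values so that all 40 are accounted for. Alternatives were DESeq2 1.42.0, its size factors, other filters, the groups compared only, a minimum change of 0.5 and each replicate left out.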

Additional observations from a re-analysis of the deposited data

Results flagged for a closer look

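In 13 of 234 groups of 4 libraries (5.56%), 1 library of a member gene stood apart from the other 3 by Dixon's test at the 95% level, where chance gives about 1 in 20. With PI103 plus oxozeaenol, replicate 4 was low for TAP1 (24.1 CPM), IFITM2 (8.73 CPM) and IFIH1 (18.2 CPM), and replicate 2 was low for IFI27 (7.75 CPM). With PI103 plus PD0325901, replicate 2 was high for IFI27 (24.8 CPM) and ISG15 (114 CPM). PD0325901 replicate 4 was low for IRF1 (26.2 CPM) and IFITM3 (159 CPM), and replicate 3 was high for IRF9 (37.9 CPM). PI103 replicate 4 was high for ISG20 (3.09 CPM) and OAS3 (80.2 CPM). Control replicate 3 was high for ERAP2 (42.7 CPM), and oxozeaenol replicate 1 was low for IFIT1 (58.2 CPM).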

How the results depend on the processing

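No called change turned its direction under the alternatives run. Of 174 member calls against control, 164 were kept in every fit that left out 1 library, and 10 were lost in at least 1. Requiring a change of at least 0.5 on the log2 scale lowered the number of called members. Against control it was 24 with PD0325901 (22.2%) and 19 with oxozeaenol (15.5%), with the share of all tested genes called there in parentheses. The same setting lowered the number to 20 with PI103, 26 with PI103 plus oxozeaenol and 34 with PI103 plus PD0325901 against control. It called 2073, 2593 and 4116 of all 13947 tested genes in these comparisons. It lowered the number of called members to 6 for PI103 plus oxozeaenol against PI103 (2.92%), 0 against oxozeaenol (0.911%) and 1 against their mean (0.244%). For PI103 plus PD0325901 it gave 19 against PI103 (8.02%), 3 against PD0325901 (1.08%) and 10 against their mean (1.46%). It gave 10 for PD0325901 against PI103 (12.4%), 8 for oxozeaenol against PI103 (9.06%) and 3 for oxozeaenol against PD0325901 (2.74%). This setting asks for more than a difference from 0, so that fewer calls follow from its construction. With each library left out in turn, PI103 plus oxozeaenol against oxozeaenol gave 5 to 10 called members, and against the mean of its agents 8 to 13. The difference between the medians of both gene groups with PI103 was 0.465 to 0.639. The replicate block gave 31 risen and 1 fallen member with PI103 against control and changed 25 calls over the 14 comparisons, all of them toward a call. The fit of only the groups compared gave 32 risen and 2 fallen members with PI103 against control. With low control counts, the sizes of the changes in BST2, OAS2 and IL28A are imprecise, and IFI44L could not be tested.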
